A study of Mus musculus with 4 samples.

Results

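Retinoic acid, made inside cells from vitamin A, acts by binding nuclear receptors that sit on DNA. Retinol enters through membrane receptors such as STRA6, is oxidised by retinol and retinaldehyde dehydrogenases, is held in the cytosol by the CRABP binding proteins and is degraded by CYP26 hydroxylases. The receptors RARα, RARβ and RARγ bind DNA as pairs with an RXR, hold corepressor complexes with a histone deacetylase while no ligand is bound, and switch to coactivators on binding retinoic acid. In the testis, retinoic acid drives the differentiation of spermatogonia and the entry of germ cells into meiosis.

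The genes described are 9 of this pathway, namely the receptors Rara, Rarb, Rarg, Rxra and Rxrb, the carriers Crabp1 and Crabp2, the degrading enzyme Cyp26b1 and the uptake receptor Stra6. They were chosen by gene name, and all non-control probes whose name in the scanner files is one of the 9 were taken. This gave 18 probes for 8 of the genes, out of 56590 non-control probes with 37067 gene or other names. Crabp2 is not analysed here.

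GC-1 cells, an immortalised mouse line used as a model of spermatogonia, received either a pCMV plasmid in which a CMV promoter drives murine Hdac6 tagged with myc/DDK (Hdac6 vector, 2 arrays) or the empty vector (2 arrays), and were harvested after 48 h. Both groups are the same cell line in the same medium with serum, and no retinoid treatment is given in the labels. The CMV promoter is a strong general promoter, so the plasmid's expression is not limited to a cell type. The labels do not say what share of the cells took up the plasmid, nor whether arrays 1 and 2 of a group came from separate cultures. The p-values thus reflect the spread among these samples alone, and part or all of it may be technical.

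Levels are log2 processed signals from which the array's 75th percentile over non-control probes was subtracted, and a probe counts as detected where the scanner software called it well above background. Between 61.0% and 64.3% of spots were detected on the Hdac6 vector arrays, and 65.1% and 66.4% on the empty vector arrays. The percentile that sets the scale was lowest on Hdac6 vector 2, at 452.6 signal units, with 815.1 on Hdac6 vector 1 and 666.0 and 692.9 on the empty vector arrays, and no spot was saturated. The 1 Hdac6 probe read 2.62 and 3.24 with the Hdac6 vector, against 3.31 and 2.83 with the empty vector, so it did not separate the groups. Whether this probe can read the plasmid's transcript was not tested. Of 16 spermatogonial markers, 9 were detected on all 4 arrays and 3, Kit, Dazl and Ret, on none. Of 6 fibroblast and mesenchyme markers 5 were detected on all 4 arrays, and of 4 peritubular myoid markers 4. Of 8 Sertoli markers 5 were, of 5 macrophage markers 4, and of 5 Leydig markers with a probe 1. A marker counts by its best detected probe, and 32593 of all 56590 non-control probes were detected on all 4 arrays. Because the samples are bulk RNA, fewer cells of a type and less RNA per cell cannot be told apart. Precision is limited by the number of arrays.

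On all 4 arrays 10 of the 18 probes, for 6 genes, were detected, while 3 were detected on some arrays and 5 on none. Of all 56590 non-control probes, 32593 were detected on all 4 arrays. In GC-1 cells Rara, Rarg, Rxra, Rxrb, Cyp26b1 and Stra6 each had a probe detected on all 4 arrays, while Rarb and Crabp1 had probes on some arrays only. A probe was tested if it was detected on both arrays of at least 1 group, which left 13 of the 18. None of the 13 changed at an adjusted p under 0.05 (limma, adjusted over 35205 tested probes), where 0.0114% of all tested probes did. The adjusted p was 1.00 for each of them. At an unadjusted limma p under 0.05 there was 1 probe, Stra6, where 1.83% of all tested probes passed.

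Most of the fold changes were below 0, none of them past the test. Of the 13 probes, 9 had a negative log2 fold change and 4 a positive one, and 46.8% of all tested probes were negative. The median was -0.19 over the 13 probes and 0.020 over all tested probes, and the median size regardless of sign was 0.23 against 0.17. The 13 probes' median was 0.030 with normexp background correction, -0.00050 without Hdac6 vector 1 and -0.026 without empty vector 1. These counts and medians include the Rarb probe A_51_P202440, whose Hdac6 vector levels were not well above background, so that its difference is only a fitted value. They also include Rarb A_55_P2099585, tested through the Hdac6 vector arrays alone, so the filter favoured a higher Hdac6 vector level there. Crabp1 A_66_P112360 was tested through the empty vector arrays alone. The 2 arrays of a group did not overlap with the other group's for 5 of the 13 probes, all lower with the Hdac6 vector. Over all tested probes 25% did not overlap, 11.9% in that direction. The 5 include Rarb A_51_P202440, which was tested through the empty vector arrays alone, so the filter favoured a lower Hdac6 vector level there. None of the 13 differed by 2-fold or more, where 1.26% of all tested probes did.

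**Figure D1:**
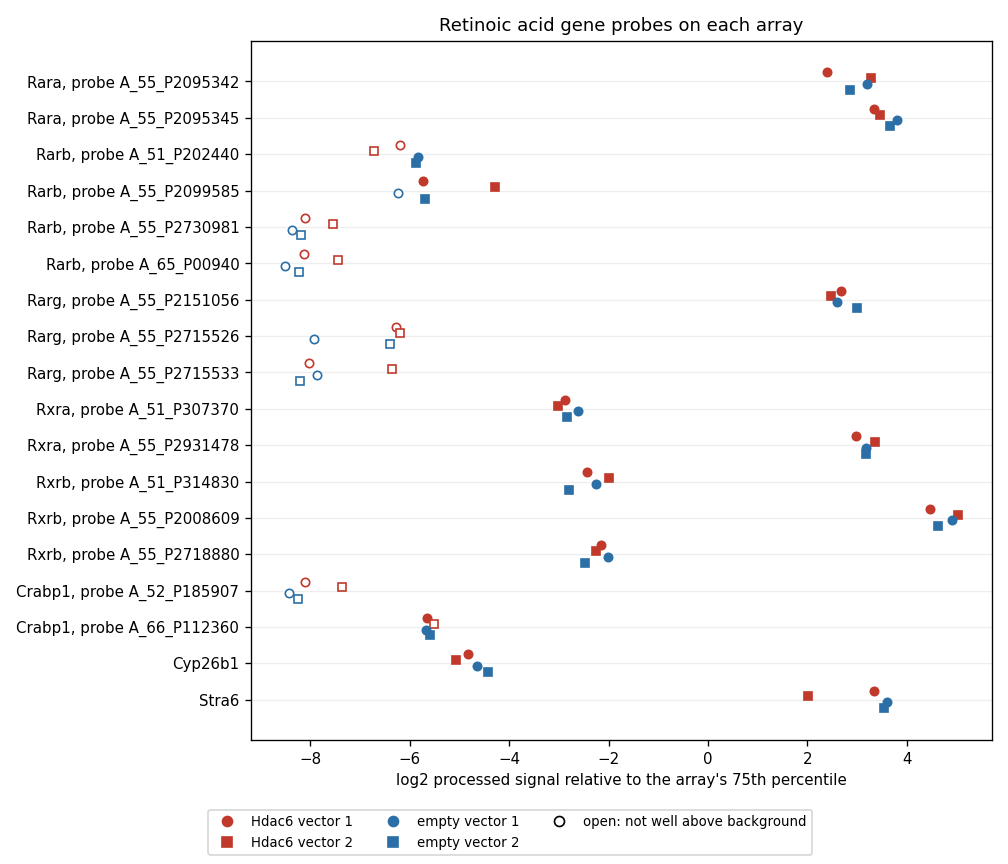
Level of each probe on each array, in log2 units above or below the array's 75th percentile. Red marks are the Hdac6 vector arrays and blue marks the empty vector arrays, circles are array 1 and squares array 2, and open marks were not well above background. Stra6 on Hdac6 vector 2, at 2.01, stands left of its other 3 values, and levels of different probes cannot be set against each other.

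**Figure D2:**
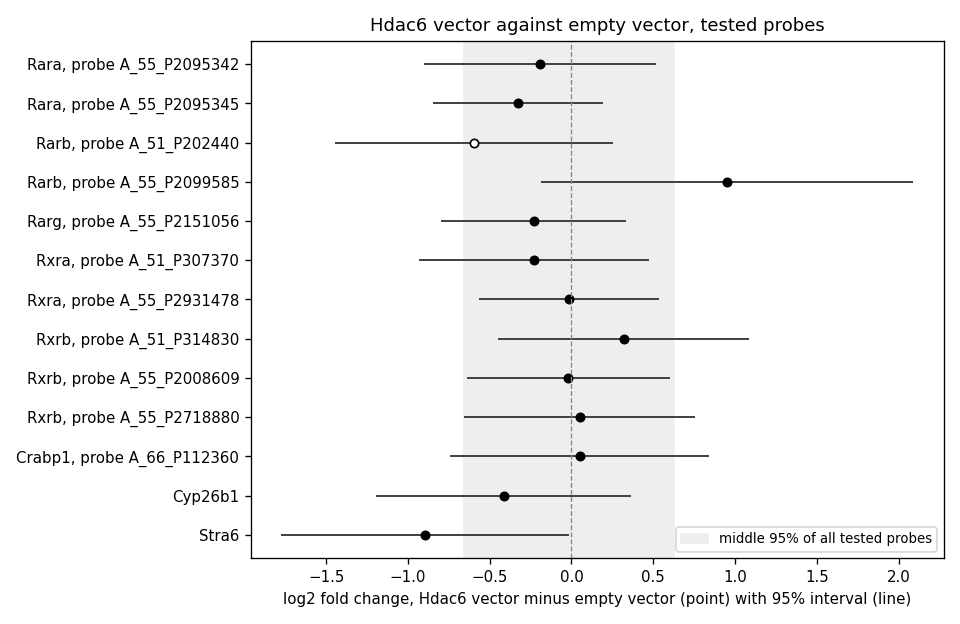
Log2 fold change of the 13 tested probes, Hdac6 vector minus empty vector, as points with 95% limma intervals as lines. The open point, Rarb A_51_P202440, was not well above background with the Hdac6 vector, so its value is only fitted. The grey band spans -0.66 to 0.63, the middle 95% of all tested probes, and the interval of Stra6 alone lies wholly on one side of 0.

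Stra6, the membrane receptor that takes up retinol from its carrier in blood, was well detected on all 4 arrays. Its 1 probe (A_51_P471177) lies on the plus strand at chr9:58000379-58000990 (mm9), and its 60 bases span 612 genomic bases, so it crosses at least 1 intron and reads spliced RNA. The probe is shown whole because the result with the smallest p rests on it alone.
Stra6 A_51_P471177: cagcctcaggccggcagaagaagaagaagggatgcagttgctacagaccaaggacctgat

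Stra6 levels were 3.35 and 2.01 with the Hdac6 vector, against 3.60 and 3.54 with the empty vector. The groups did not overlap, but Hdac6 vector 1 lay close to both empty vector arrays while Hdac6 vector 2 lay far below. Hdac6 vector 2 was 1.49 under the mean of the other 3 arrays, which spanned 0.25, and 0.915% of all tested probes had that array at least as far from the others. The log2 fold change was -0.90 (SE 0.39), or 0.538-fold (95% interval 0.294 to 0.984, n = 2 per group, limma unadjusted p = 0.0454, adjusted p = 1.00). Without Hdac6 vector 2 the log2 fold change was -0.22, and without Hdac6 vector 1 it was -1.57 (limma adjusted p = 0.692), while the lowest adjusted p with any 1 array left out was 0.333, without empty vector 2. By the rule of smallest root mean square difference between mean-centred levels over the 4 arrays, the most alike probes were those of B020031M17Rik (0.0617), Pnma2 (0.0677) and Trpm1 (0.0701). Of the 35205 tested probes 97 lay within 0.2, with the Stra6 probe itself counted.

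The other genes of uptake, storage and synthesis were taken from a list of 28, of which 23 were tested. None changed, and none had an unadjusted limma p under 0.05. With the Hdac6 vector 13 were higher and 10 lower, and their log2 fold changes ran from -0.38 to 0.81 around a median of 0.12. That median was -0.14 without Hdac6 vector 2, -0.015 without empty vector 2 and 0.028 without empty vector 1, and it was 0.033 with median scaling and 0.049 with quantile normalization. The upper end, 0.81, is Aldh1a3, tested through the Hdac6 vector arrays alone. Adh1, at 0.13, was tested through the empty vector arrays alone. Rbp4, the retinol carrier that STRA6 binds, read 6.25 and 6.65 with the Hdac6 vector, against 6.09 and 6.27 with the empty vector, a log2 fold change of 0.27. Stra6l, which encodes a second retinol transporter related to STRA6, was detected on all 4 arrays with a log2 fold change of -0.37. Lrat, which esterifies retinol for storage, was detected on no array.

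Of the synthesis steps, Rdh10 encodes a main retinol dehydrogenase and Dhrs3 an enzyme that turns retinaldehyde back to retinol. Rdh10 read 2.42 and 3.06 with the Hdac6 vector, against 2.48 and 2.82 with the empty vector, a log2 fold change of 0.088. Dhrs3 read 5.44 and 5.75 with the Hdac6 vector, against 5.75 and 5.59 with the empty vector, a log2 fold change of -0.079. In both genes the groups overlapped. Of the 3 retinaldehyde dehydrogenases that make retinoic acid, Aldh1a1 and Aldh1a2 were detected on all 4 arrays and Aldh1a3 on 3. Aldh1a1 read 3.74 and 3.70 with the Hdac6 vector, against 3.79 and 4.03 with the empty vector (log2 fold change -0.19). Aldh1a2 read -5.08 and -4.38 with the Hdac6 vector, against -5.53 and -5.26 with the empty vector, 1.59-fold (limma unadjusted p = 0.115, adjusted p = 1.00). Aldh1a3 read -5.03 and -4.50 with the Hdac6 vector, against -5.12 and -6.03 with the empty vector, where 1 of the 2 arrays detected it, 1.75-fold (limma unadjusted p = 0.0862, adjusted p = 1.00). Aldh1a3 was tested through the Hdac6 vector arrays alone, so the filter favoured a higher Hdac6 vector level there. The smallest p-values of the list were those of Aldh1a2, Aldh1a3 and Rdh13 (log2 fold change -0.38).

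**Figure D3:**
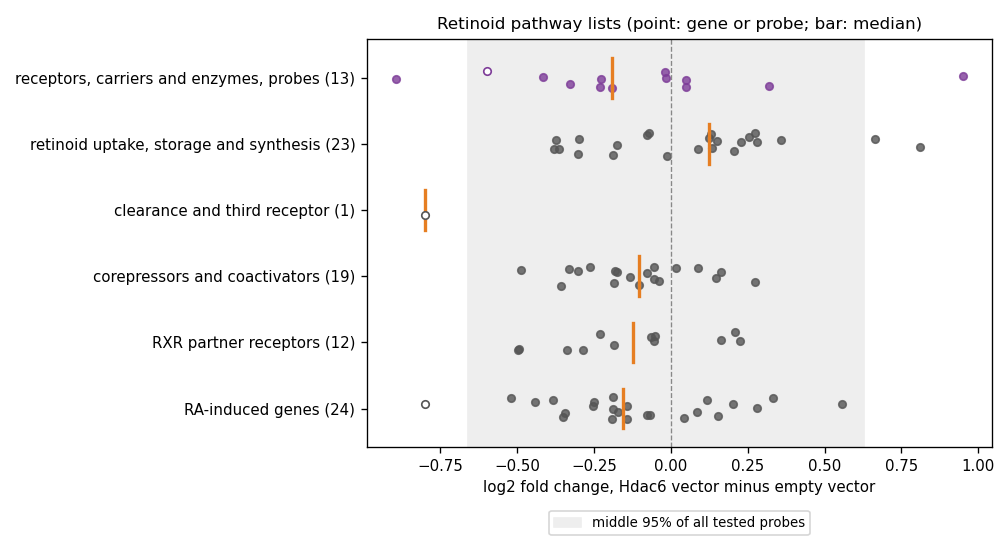
Log2 fold changes, Hdac6 vector minus empty vector, of the 13 tested probes of the 8 genes (purple) and of the tested genes of the pathway lists (grey), with the median as an orange bar and the number tested in brackets. The medians of the grey lists run from -0.16 in the genes induced by retinoic acid to 0.12 in the uptake and synthesis list, apart from the row that holds Cyp26a1 alone, an open mark like that of Rarb A_51_P202440 because neither was well above background with the Hdac6 vector and the value is only fitted, and the grey band is the middle 95% of all tested probes.

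The receptor RARα, encoded by Rara, is needed for spermatogenesis in mice. Both of its probes were detected on all 4 arrays. Probe A_55_P2095342 (plus strand, chr11:98835350-98835409, mm9) read 2.40 and 3.27 with the Hdac6 vector, against 3.20 and 2.86 with the empty vector, and the groups overlapped. Its log2 fold change was -0.19 (SE 0.31, limma adjusted p = 1.00), and without Hdac6 vector 1 it was 0.24. Probe A_55_P2095345 (chr11:98836197-98836256) lies 847 bases further toward the 3′ end. It holds AATAAA, the letters of the common polyadenylation signal, in capitals in the 30 bases shown, and a match of letters does not show that a transcript ends there. For each gene with several probes, the 3′ probe is here the one whose position lies furthest toward the 3′ end.
Rara A_55_P2095345, bases 25 to 54: tactggagaaagAATAAAgttctatttatt

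This 3′ probe read 3.35 and 3.47 with the Hdac6 vector, against 3.80 and 3.67 with the empty vector. Both Hdac6 vector arrays lay below both empty vector arrays, and the log2 fold change was -0.33 (SE 0.23), or 0.797-fold (95% interval 0.558 to 1.14, limma unadjusted p = 0.182, adjusted p = 1.00). It was negative whichever array was left out, at -0.39 to -0.27.

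RARγ, encoded by Rarg, is the receptor found in differentiating spermatogonia of the mouse. Its 3′ probe A_55_P2151056 (minus strand, chr15:102065371-102065430, mm9) was detected on all 4 arrays, and it too holds AATAAA, in capitals below.
Rarg A_55_P2151056, bases 30 to 59: ctatttttgcaaAATAAAgtgatggaaact

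The probe read 2.68 and 2.47 with the Hdac6 vector, against 2.60 and 3.01 with the empty vector, so the groups overlapped, and the log2 fold change was -0.23 (SE 0.25, 0.853-fold, 95% interval 0.578 to 1.26, limma adjusted p = 1.00). The other 2 Rarg probes, 7021 and 10139 bases further upstream, were detected on no array and were not tested, and the one 10139 bases upstream also holds AATAAA.

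Rarb encodes RARβ, a receptor that is itself induced by retinoic acid in many cells through a response element in 1 of its promoters. Such elements are direct repeats of a half-site. The promoter windows of RefSeq (250 bases before to 50 after each start, GRCm38.p6), 17 windows for the 8 genes, were searched on both strands for pairs of half-sites with 5 bases between them (DR5), 2 (DR2) or 1 (DR1). A half-site was taken as AGGTCA, or as one of its variants AGTTCA, or else GGTTCA, or finally GGGTCA. DR5 was in 1 of the 17 windows, of Rarb, and in 0.0974% of all 32851 windows, while DR2 (0.268% of all windows) and DR1 (0.222%) were in none of the 17. The Rarb element, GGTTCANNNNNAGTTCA, was in 0.00609% of all windows. Its letters were taken from the match in the Rarb window, which is itself counted in that share. Below are the 93 bases before the Rarb start on the minus strand (chr14:16575477-16575569, GRCm38.p6), read along the gene, with the half-sites in capitals; the element covers bases 53 to 37 before the start.
Rarb promoter: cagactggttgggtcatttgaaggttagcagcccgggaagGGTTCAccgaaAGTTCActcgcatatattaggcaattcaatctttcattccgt

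A window also holds DR5 in Cyp26a1, which encodes a second hydroxylase of retinoic acid and is a widely used readout of the pathway. Its 93 bases before the start, on the plus strand (chr19:37697715-37697807, GRCm38.p6), carry the repeat on the opposite strand, with the half-sites again in capitals.
Cyp26a1 promoter: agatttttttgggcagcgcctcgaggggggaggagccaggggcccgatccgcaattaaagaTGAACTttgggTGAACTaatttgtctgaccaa

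A match of letters is a description and shows no binding. Rarb has 4 probes, on the minus strand of chromosome 14, and neither of the 2 that were tested passed the test. Probe A_51_P202440 (chr14:17263511-17263570, mm9) is listed in the scanner files for 4 RefSeq transcripts. Probe A_55_P2099585 (chr14:17651424-17651483) lies 387.9 kb further upstream and is listed for only 2 of these 4. The first 30 bases of each are shown, since the Rarb values rest on these 2.
Rarb A_51_P202440, bases 1 to 30: aatgagtggttgacagactcaagtgtcggc
Rarb A_55_P2099585, bases 1 to 30: tattgagcctgtttgcacacactcaccacc

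The 3′ probe A_51_P202440 read -6.19 and -6.71 with the Hdac6 vector, neither well above background, against -5.84 and -5.87 with the empty vector, both well above background. The groups did not overlap, with means of -6.45 with the Hdac6 vector and -5.85 with the empty vector (limma unadjusted p = 0.144, adjusted p = 1.00). The lowest signal called well above background was -5.82 and -5.33 on the 2 Hdac6 vector arrays, and its mean over them lay above the mean of the empty vector arrays, so neither a fold nor a bound can be given. With normexp background correction the fitted difference had the other sign.

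The upstream probe A_55_P2099585 read -5.74 and -4.29 with the Hdac6 vector, both well above background, against -6.24 and -5.70 with the empty vector, where only empty vector 2 was. This probe was tested through the Hdac6 vector arrays alone, so the filter favoured a higher Hdac6 vector level. The groups overlapped, since Hdac6 vector 1 lay between the empty vector arrays and Hdac6 vector 2 lay above all others. The log2 fold change was 0.95 (SE 0.50), or 1.93-fold (95% interval 0.882 to 4.24, limma unadjusted p = 0.0898, adjusted p = 1.00). Without Hdac6 vector 2 it was 0.22, and without Hdac6 vector 1 it was 1.68, and with normexp background correction and all 4 arrays it was 0.30. Hdac6 vector 2, the array that was lowest for Stra6, was here 1.60 above the mean of the other 3, and 0.719% of all tested probes had it at least as far away. The other 2 Rarb probes, 378 bases and 116.6 kb upstream of the 3′ probe, were detected on no array.

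The authors' deposited value table has 1 row per gene name, and the Rarb row joins these probes. For gene names with several probes, none of them printed more than once, there were 16007 values where only part of the probes were detected on the array. In these, the table's value equalled the mean of the detected probes in 100%, within 0.01 after the array's constant was removed, and the mean of all probes in 0%. With its constant removed, the Rarb row read -5.74 and -4.29 on the Hdac6 vector arrays, against -5.84 and -5.78 on the empty vector arrays. On both Hdac6 vector arrays it held the upstream probe alone, on empty vector 1 the 3′ probe alone, and on empty vector 2 the mean of both. The row's log2 fold change was 0.72 (SE 0.51, limma adjusted p = 0.842), fitted on the table's own values with the array constants left in. This fold change therefore sets different probes against each other.

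**Figure D4:**
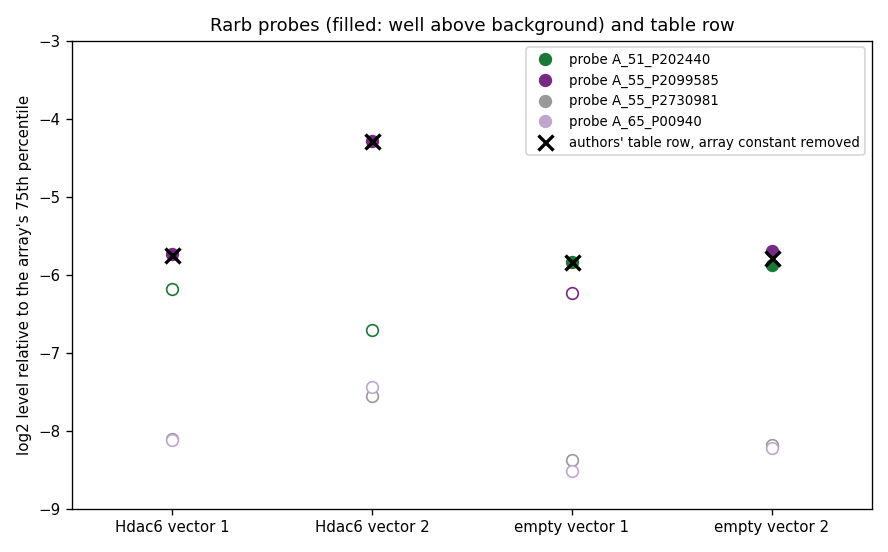
Level of the 4 Rarb probes on each array (log2 relative to the array's 75th percentile, filled where well above background) and the Rarb row of the authors' table with its array constant removed (crosses). The crosses sit on the upstream probe on both Hdac6 vector arrays, on the 3′ probe on empty vector 1, and between the 2 on empty vector 2.

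RXRα, encoded by Rxra, is the most general partner of the retinoic acid receptors. Its 3′ probe A_55_P2931478 (plus strand, chr2:27618345-27618404, mm9) read 2.98 and 3.37 with the Hdac6 vector, against 3.19 and 3.19 with the empty vector. The 2 empty vector values fell between the 2 Hdac6 vector values, and the fold was 0.990 (95% interval 0.679 to 1.44, limma adjusted p = 1.00). Probe A_51_P307370 (chr2:27615316-27615375), 3029 bases upstream, read -2.88 and -3.02 with the Hdac6 vector, against -2.61 and -2.84 with the empty vector. The groups did not overlap, by a margin smaller than the gap between the empty vector arrays, and the fold was 0.853 (95% interval 0.527 to 1.38, limma adjusted p = 1.00).

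RXRβ, encoded by Rxrb, is the partner whose loss in mice leads to male sterility. Its 3 probes were detected on all 4 arrays, and the groups overlapped for each. The 3′ probe A_55_P2008609 (plus strand, chr17:34175279-34175338, mm9) read 4.47 and 5.03 with the Hdac6 vector, against 4.91 and 4.63 with the empty vector, a fold of 0.987 (95% interval 0.645 to 1.51). The other 2 probes lie 1474 and 1183 bases upstream, span 175 and 262 genomic bases, and so cross at least 1 intron each. They are shown whole because they read spliced RNA.
Rxrb A_51_P314830 (chr17:34173690-34173864): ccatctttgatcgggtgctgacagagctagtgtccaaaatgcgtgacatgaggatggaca
Rxrb A_55_P2718880 (chr17:34173894-34174155): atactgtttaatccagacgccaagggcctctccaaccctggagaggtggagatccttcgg

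Probe A_51_P314830 read -2.43 and -1.98 with the Hdac6 vector, against -2.25 and -2.81 with the empty vector, 1.25-fold (95% interval 0.737 to 2.12). Probe A_55_P2718880 read -2.15 and -2.25 with the Hdac6 vector, against -2.02 and -2.48 with the empty vector, 1.04-fold (95% interval 0.637 to 1.68). All 3 had a limma adjusted p of 1.00.

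Crabp1 encodes a cytosolic retinoic acid binding protein, known from germ cells of the mouse testis. Its 3′ probe A_66_P112360 (plus strand, chr9:54620842-54620901, mm9) is 1 of the probes printed 10 times on the array. Of these spots 7 and 4 were well above background on the Hdac6 vector arrays, against 8 and 7 on the empty vector arrays, so the gene was at the limit of detection. The mean levels were -5.65 and -5.51 with the Hdac6 vector, against -5.67 and -5.59 with the empty vector, with an SD between spots of 0.34 and 0.74 on the Hdac6 vector arrays and 0.40 and 0.56 on the empty vector arrays. The groups overlapped at 1.04-fold (95% interval 0.601 to 1.79, limma adjusted p = 1.00). The spots of 1 array share its RNA and are not replicates. The second probe, 4650 bases upstream, was detected on no array.

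Cyp26b1 encodes the hydroxylase that clears retinoic acid in the fetal testis and keeps germ cells there out of meiosis. Its 1 probe (A_51_P501844, minus strand, chr6:84521952-84522011, mm9) was detected on all 4 arrays, at -4.84 and -5.07 with the Hdac6 vector, against -4.65 and -4.43 with the empty vector. Both Hdac6 vector arrays lay below both empty vector arrays. The log2 fold change was -0.42 (SE 0.34), or 0.750-fold (95% interval 0.439 to 1.28, limma unadjusted p = 0.255, adjusted p = 1.00), at -0.53 to -0.30 with 1 array left out, and 0.030 with normexp background correction.

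Of the related genes of clearance and reception, Cyp26c1, another hydroxylase of the family, and Rxrg, which encodes RXRγ, were detected on no array. Cyp26a1 was tested: it read -6.02 and -5.52 with the Hdac6 vector, neither well above background, against -5.30 and -4.64 with the empty vector, both well above background. Cyp26a1 entered the test through the empty vector arrays alone, where it was higher, and its difference is only a fitted value. No fold is given, and the difference did not pass the test (limma unadjusted p = 0.0729, adjusted p = 1.00). With normexp background correction the fitted log2 difference was -0.040.

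The partners of the receptors were described from 2 lists, and 46.8% of all tested probes had a log2 fold change below 0. Among 19 corepressors and coactivators, all tested, 5 were higher and 14 lower with the Hdac6 vector, none changed, and the median log2 fold change was -0.10. It was -0.19 without empty vector 1, -0.20 with median scaling and -0.068 with quantile normalization. The smallest p-values belonged to the coactivators Ncoa1 (-0.49, limma unadjusted p = 0.129) and Ncoa3 (-0.36, limma unadjusted p = 0.182) and to Ncor1 (-0.30, limma unadjusted p = 0.219), a corepressor of RARs without ligand. Hdac3, the deacetylase of the NCOR complex, had a log2 fold change of 0.16. Among 13 other receptors that pair with RXR, 12 were tested, 3 were higher and 9 lower, none changed, and the median was -0.12. It was -0.078 without empty vector 1, -0.053 without empty vector 2, -0.025 with normexp and -0.22 with median scaling. Their smallest p-values were at Nr1i3 (-0.49, limma unadjusted p = 0.129), Nr4a2 (-0.50, 0.235) and Ppard (-0.28, 0.240).

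Genes that retinoic acid induces were described from a list of 34, which holds targets known from several tissues. Of these 24 were tested, 8 were higher and 16 lower with the Hdac6 vector, where 46.8% of all tested probes were below 0. None changed, none had an unadjusted limma p under 0.05, and the median log2 fold change was -0.16. It was -0.091 without Hdac6 vector 1, -0.076 without empty vector 2, -0.053 with normexp and -0.25 with median scaling. The 16 include Cyp26a1, whose value is only fitted and which was tested through the empty vector arrays alone. Beside Cyp26a1 the smallest p-values were at Zfp703 (-0.38, limma unadjusted p = 0.126) and Tshz1 (-0.52, 0.138), both transcriptional regulators. Of the targets in germ cells, Stra8, which is needed to enter meiosis, was well above background on empty vector 1 alone, and Kit on no array. Rec8, a meiotic cohesin subunit, was detected on all 4 arrays with a log2 fold change of 0.33. Of the 31 genes with DR5 in a promoter window, a list made after the values were seen, 16 had a probe and 9 were tested. With the Hdac6 vector 4 were higher and 5 lower, none changed, and the median was -0.024. Rarb counted as higher by its upstream probe, tested through the Hdac6 vector arrays alone, while its 3′ probe was lower. Cyp26a1 and Cfap45, both lower, were tested through the empty vector arrays alone.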

How the data were processed

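RNA of 4 samples was measured on 1-colour Agilent mouse arrays, all on 1 slide with 1 scan time. Per the file headers, the deposited spot intensity values were extracted with Feature Extraction 11.5.1.1 (protocol GE1_1105_Oct12), background-subtracted and with no scaling across arrays. Agilent Feature Extraction is also the tool in the submitters' processing notes. Reverse transcription began at an oligo-dT primer, per the labels' protocols, so probes far from a 3′ end depend on long copies. The authors also deposited a table of log2 values with 37060 rows, and no source used here says how. Set against the scanner values, its columns differed from the log2 levels used here, after the 75th percentile was subtracted, by 1 constant per array (0.27 and 0.10 for the Hdac6 vector, 0.27 and 0.27 for the empty vector) in at least 99.8% of 25179 single-probe names (tolerance 0.01), which gives scale and direction and places its centring that far from the 75th percentile. Its column medians were -3.71 and -3.68 for the Hdac6 vector and -3.78 and -3.67 for the empty vector.

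Of 62976 spots per array, 59305 were not controls. Spots flagged as outliers were left out, which lost 15 probes, and the 10 spots of each of 300 repeated probes were averaged, leaving 56590 probes. A repeated probe counts as well above background where over 50% of its spots were. Each array's 75th percentile was subtracted on the log2 scale. Tests used limma 3.58.1 in R 4.3.3 (lmFit, eBayes with a trend), two-sided, with Benjamini-Hochberg adjustment over the 35205 tested probes, 2 residual degrees of freedom and 7.08 from the shared spread. The procedure was tested on simulated data, with 50 changed probes at each size. It recovered 3 of them at 2-fold, 36 at 4-fold and 50 at 8-fold, with 11 false calls. Probe positions are the files' (mm9, 1-based), promoters are RefSeq's (GRCm38.p6), and the builds were not mixed.

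Named are all probes of the 9 genes and, from each list, changed genes or else the 3 with the smallest p, plus the genes of the steps next to a member; Hdac3, Rec8, Stra8 and Kit were named after their values were seen. A list gene with several probes is given by its brightest tested probe. The genes and lists were chosen with earlier results of these data known. Alternatives were other scalings, normexp (offset 50), other filters, no trend, blocks, the authors' table and leaving out each array. The arrays' numbers were not treated as pairs, since same-numbered arrays deviated in opposite ways (r = -0.36 across 35205 probes).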

Additional observations from a re-analysis of the deposited data

How the results depend on the processing

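No member probe and no gene of the retinoid lists changed under any alternative (0 in each, also with 1 array left out, where the count was 0 to 0; lowest adjusted p then 0.333 for members and 0.259 for lists). Of all tested probes 4 changed in the setting reported, 2 with quantile normalization, 0 with median scaling, 28 with normexp, 2 without a trend, 22 with the replicate block, 14 with a crossed block that was added after seeing the data, and 31 rows in the authors' table; the cause was not tested. With 1 array left out the count was 0 to 300: 0 without Hdac6 vector 1 or 2, 12 without empty vector 1 and 300 without empty vector 2, with the lone array assumed to vary like the other group. The replicate block changed no call among the members. Member probes detected on all 4 arrays were 10, and 14 by the scanner's weaker significance flag. Of the members' log2 fold changes under an alternative, 151 kept their direction and 15 turned. Under the other filters, no trend and the blocks a fold change stays exactly as it was. Those settings could not turn one, and the 151 include them. The 15 ended at a size of 0.27 or less, and began as far out as -0.60 (Rarb A_51_P202440) and -0.42 (Cyp26b1). With quantile normalization these were Rxra A_55_P2931478 (0.022), Rxrb A_55_P2718880 (-0.0047) and Crabp1 (-0.060), with median scaling Rxrb A_55_P2718880 (-0.041) and Crabp1 (-0.040), and with normexp Rarb A_51_P202440 (0.036), Rxrb A_55_P2008609 (0.044) and Cyp26b1 (0.030). With 1 array left out the ranges that crossed 0 were -0.63 to 0.24 for Rara A_55_P2095342, -0.21 to 0.18 for Rxra A_55_P2931478, -0.30 to 0.27 for Rxrb A_55_P2008609, -0.18 to 0.28 for Rxrb A_55_P2718880 and -0.019 to 0.12 for Crabp1. The median over all tested probes moved between -0.072 (median scaling) and 0.11 (no filter). Signals of Rarb, Crabp1, Cyp26b1, Cyp26a1, Aldh1a2 and Aldh1a3 lay near background, which limits what their folds show.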
